A study of Mus musculus with 21 samples.

Results

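Heme is made from glycine and succinyl-CoA by a chain of enzymes that starts in the mitochondrion, continues in the cytosol and ends in the mitochondrion again. The first enzyme, 5-aminolevulinate synthase, sets the rate of the pathway and exists as a pair of isozymes: Alas1, found in most tissues and repressed by heme, and Alas2, the X-linked erythroid form that serves hemoglobin. Red cell precursors make far more heme than other marrow cells, whereas granulocytic cells need it for myeloperoxidase, cytochromes and the phagocyte oxidase.

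The genes followed here were Alas1 and Alas2 together with Alad, Uros, Urod, Cpox, Ppox and Fech, which encode later enzymes of the chain. They were found through the RefSeq accessions on the array, and all 8 had a probe, among 18213 genes with a named probe. Alas1 and Fech had 2 probes each and the other genes 1, and the brightest probe of a gene was used. All 8 genes passed the filter on dim probes, which kept 29527 of 41174 probes.

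Bone marrow of C57BL/6 mice was sorted into 7 fractions, and RNA of each was hybridized to 3 arrays, which makes 21 in all. KLS cells are the multipotent progenitors (lin- ckit+ sca1+). PreMegE (CD150+ CD105-, without Fc gamma receptors), CFUe and Ter119 (CD71+ Ter119+) follow on the erythroid side, and PreGM, GMP (CD150-, with Fc gamma receptors) and Mac1Gr1 (Mac1+ Gr1+) on the myeloid side. The comparisons ask at which of these steps each enzyme gene changes, and whether the lineages part. The labels give CFUe and PreGM the same gate (CD150- CD105-, without Fc gamma receptors) and call all 5 progenitor fractions lin- ckit+ sca1+. No label tells whether the arrays of a fraction came from separate mice, so p-values measure only the spread between these samples, which may be technical. In bulk samples, fewer cells of a type and less RNA per cell cannot be told apart.

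For each of the 21 arrays, the closest other array by correlation was one of the same fraction. The 75th percentile of the signal lay at 196 to 292 units on the Ter119 arrays, 345 to 401 on the Mac1Gr1 arrays and 503 to 1010 on the others. The transcript of Ly6a, which encodes Sca1, had a mean log2 level of 2.57 in KLS but -3.14 in PreMegE and -5.81 in CFUe, where 1 of 3 arrays was well above background. Eng, which encodes CD105, stood at 2.47 in CFUe, a fraction labelled CD105-. The Ter119 fraction carried transcripts of other cells: all 13 granulocytic markers were called higher than in CFUe, and their summed log2 level was 12.2 to 12.5 against 2.43 to 5.37 in CFUe and 12.4 to 12.6 in Mac1Gr1. All 7 B cell markers and all 7 macrophage markers with a probe were also called higher there than in CFUe. Of all probes, 29.2% were called higher in Ter119 than in CFUe. The erythroid markers were highest in the same fraction, with a summed level of 12.1 to 12.5 in Ter119 and 7.08 to 7.21 in CFUe.

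Levels below are log2 signals from which the 75th percentile of that array was subtracted, so a level of 0 equals that percentile. They serve to compare fractions for 1 gene and not genes with each other. A gene was called where limma gave an adjusted p under 0.05 and the change was at least 2-fold, and each error after ± is a standard error unless SD is named. Some called changes depend on the scaling, since scaling to the spike-in RNAs moved the median change of all probes from CFUe to Ter119 from 0.05 to -1.33 and that from GMP to Mac1Gr1 from 0.17 to -1.86. Values under that scaling are given where they lose, add or turn a call, and orders of levels are those of the main scaling.

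The stretches before the transcription starts of Alas1, Alas2 and Cpox are shown because these genes gave the clearest contrasts: the isozymes moved apart, and Cpox and Alas2 took their largest rise at different erythroid steps. They are 250 bases each from RefSeq on build GRCm38.p6, written 5′ to 3′ on the strand of the gene. Capitals mark matches, on either strand, to GATA words (AGATAA or AGATAG, and TGATAA or TGATAG), to the CACCC word CCNCNCCC and to the NRF1 word GCGCATGC.
Alas1, chr9:106247955-106248204, minus strand: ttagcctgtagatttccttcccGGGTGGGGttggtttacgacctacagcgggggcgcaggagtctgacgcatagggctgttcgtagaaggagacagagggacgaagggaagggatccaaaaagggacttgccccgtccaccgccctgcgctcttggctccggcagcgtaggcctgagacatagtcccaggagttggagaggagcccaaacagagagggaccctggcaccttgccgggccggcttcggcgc
Alas2, chrX:150547167-150547416, plus strand: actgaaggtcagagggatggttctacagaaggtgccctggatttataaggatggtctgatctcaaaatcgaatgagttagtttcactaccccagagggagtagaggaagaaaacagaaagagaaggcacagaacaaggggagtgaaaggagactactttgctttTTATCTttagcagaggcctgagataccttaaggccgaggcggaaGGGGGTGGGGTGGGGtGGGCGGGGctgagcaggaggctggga
Cpox, chr16:58669958-58670207, plus strand: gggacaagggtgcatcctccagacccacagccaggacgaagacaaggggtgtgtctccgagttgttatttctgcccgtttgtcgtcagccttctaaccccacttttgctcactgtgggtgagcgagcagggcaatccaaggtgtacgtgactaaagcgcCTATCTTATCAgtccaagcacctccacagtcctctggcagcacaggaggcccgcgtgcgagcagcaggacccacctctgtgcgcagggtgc
The windows searched ran from 250 bases before to 50 after a start, and RefSeq gave 10 of them for 7 of the 8 genes. The Alas2 window held 1 GATA match, 86 bases before the start, and 4 CACCC matches that began 42, 40, 35 and 26 bases before it. The Cpox window held 2 GATA matches that share a base, 91 and 86 bases before the start, and another within the transcript. Uros held 2 GATA matches, but only in the window of a start 6795 bases from its other one. Neither Alas1 window, at starts 224 bases apart, held a GATA match, and both held the same pair of overlapping NRF1 matches. That pair lay 195 and 193 bases before 1 start. It lay within the transcript of the other start, whose printed stretch therefore does not hold it. A GATA word was present for 3 of these 7 genes and for 33.0% of all 27025 genes with a window, a CACCC word for 7 of 7 and 51.9%, and the NRF1 word for 1 of 7 and 3.05%. Matches of these letters describe the windows and are not binding sites.

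**Figure D1:**
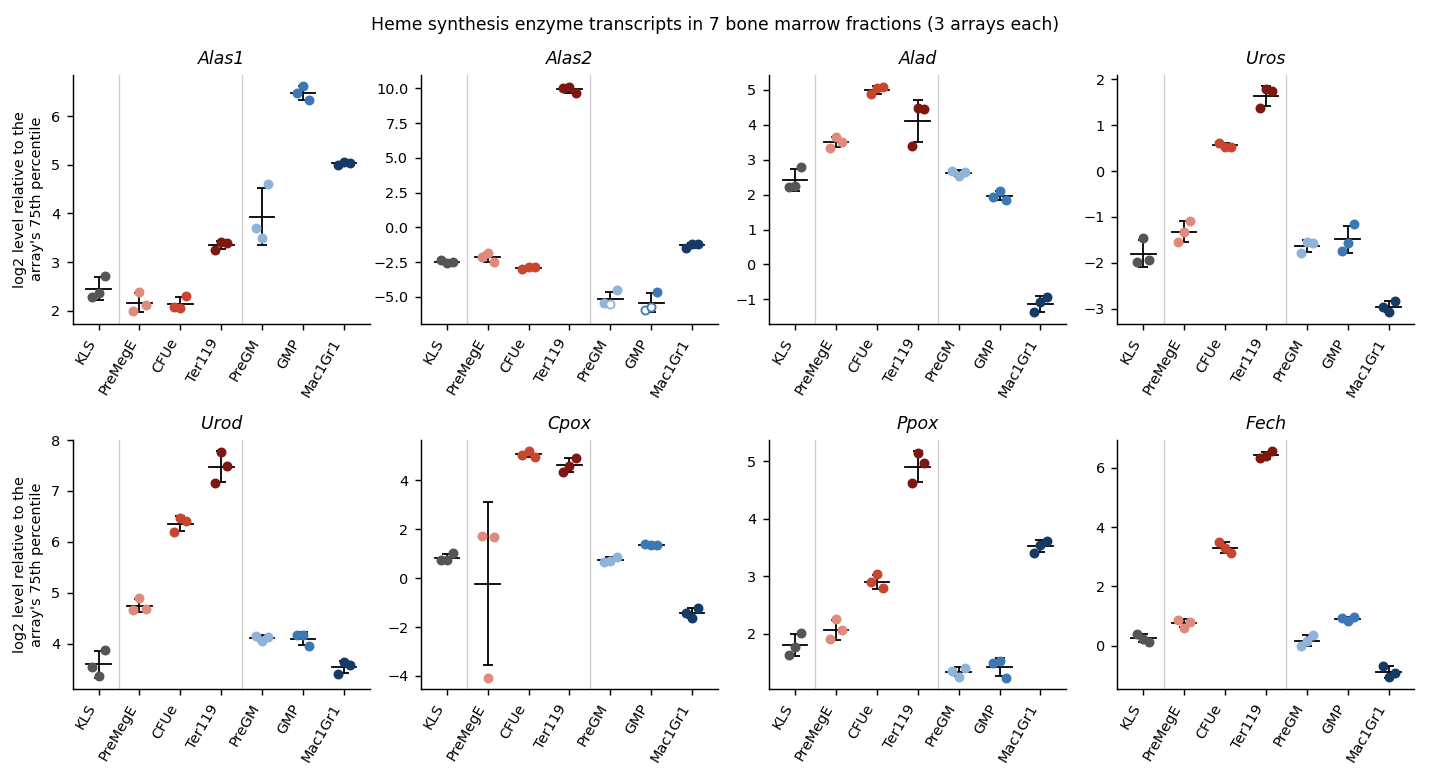
Log2 level of each of the 8 genes relative to the 75th percentile of the array (vertical axis, a scale of its own for each gene) in the 7 fractions (horizontal axis). Points are arrays, open points are arrays where the probe was not well above background, and black bars are the mean ± SD (n = 3). Alas1 was highest in GMP, Alas2 in Ter119, and 1 PreMegE array lay far below the other 2 for Cpox.

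All 8 genes varied over the 7 fractions by the moderated F-test of limma, as did 94.7% of all probes tested. The range of the fraction means ran from 11.8-fold for Ppox to 158-fold for Fech, apart from Alas2, whose range was wider.

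Alas2 rose at the last erythroid step and was not called higher at the ones before it, although its probe was well above background on every array of KLS and the erythroid fractions. Its log2 level was -2.33, -2.59 and -2.54 on the KLS arrays, -2.11, -1.88 and -2.50 in PreMegE, and -3.01, -2.86 and -2.84 in CFUe. It then stood at 10.0, 10.1 and 9.63 in Ter119. The CFUe arrays were thus the lowest of the erythroid side and the Ter119 arrays lay far above every other array. The rise from CFUe to Ter119 was 12.83 ± 0.29 on the log2 scale, or 7267-fold (adjusted p = 1.66e-15), and it was 12.64 between the arrays of both fractions that shared a slide. From PreMegE to CFUe, Alas2 changed by -0.74 ± 0.29 (adjusted p = 0.0436), which is under 2-fold, or by -1.26 and with a call under spike-in scaling (adjusted p = 0.00113). The erythroid markers as a list were already rising at that step, with 9 of 12 called higher and none lower, against 9.96% and 14.7% of all probes.

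On the myeloid side, Alas2 sank close to background in the progenitors and rose again in Mac1Gr1, though it stayed far below its Ter119 level. Its level was -5.45, -5.50 and -4.55 in PreGM, -5.93, -5.72 and -4.65 in GMP, and -1.51, -1.19 and -1.18 in Mac1Gr1. The probe was well above background on 2 of the 3 PreGM arrays and 1 of the 3 GMP arrays, and on all arrays of the other fractions. The fall from KLS to PreGM was -2.68 ± 0.29 (adjusted p = 5.64e-06), and the rise from GMP to Mac1Gr1 was 4.14 ± 0.29 (adjusted p = 8.24e-10). It ended above the KLS level by 1.19 (adjusted p = 0.00138), which turned to -0.44 under spike-in scaling. Other erythroid transcripts moved at the same steps. From GMP to Mac1Gr1, 7 of the 12 erythroid markers were called higher and 1 lower, against 29.1% and 27.6% of all probes. Alpha-globin (Hba-a1) rose from -1.58 to 3.02 at that step. The summed level of the markers was 4.45 to 4.98 in KLS, 2.69 to 3.10 in PreGM, 1.91 to 2.11 in GMP and 4.80 to 5.12 in Mac1Gr1. In Mac1Gr1, 9 of the 12 markers were well above background on all 3 arrays and 3 on none, against 8 and 3 in GMP and 9 and 1 in KLS. The part of erythroid cells in the Alas2 values of KLS and Mac1Gr1 was not tested.

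In the order of its levels, Alas2 was highest in Ter119 and next in Mac1Gr1, each distinct from its neighbor. PreMegE, KLS and CFUe came next, and neighbors among them did not differ beyond their spread (adjusted p = 0.450 and 0.227). PreGM and GMP came last and did not differ from each other (adjusted p = 0.561).

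Alas1, the isozyme of most tissues, followed the myeloid side instead. Its log2 level was 2.28, 2.37 and 2.72 in KLS, 3.70, 3.5 and 4.6 in PreGM, 6.48, 6.62 and 6.34 in GMP, and 4.99, 5.06 and 5.04 in Mac1Gr1. Each step separated the arrays fully, up to GMP and then down. The rise of Alas1 between KLS and PreGM was 1.48 ± 0.21 (adjusted p = 8.73e-05), or 0.86 and without a call under spike-in scaling, and that between PreGM and GMP was 2.55 ± 0.21 (5.84-fold, adjusted p = 1.62e-07). Mac1Gr1 differed from GMP by -1.45 ± 0.21 (adjusted p = 7.67e-06). The second probe of the gene had the same course on its own scale, with means of 0.36 in KLS, 1.77 in PreGM, 4.37 in GMP and 2.72 in Mac1Gr1.

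In the erythroid fractions, Alas1 stayed low. It was measured at 2.0, 2.39 and 2.11 in PreMegE, 2.08, 2.05 and 2.30 in CFUe, and 3.25, 3.40 and 3.40 in Ter119. The first 2 of these fractions overlapped with each other and with KLS, and Ter119 lay above both. The rise from CFUe to Ter119 was 1.21 ± 0.21 (2.31-fold, adjusted p = 5.71e-05), but its sign turned to -0.17 under spike-in scaling. It went together with the rise of the granulocytic markers given above, and their part in it was not tested.

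Alas1 was highest in GMP, then in Mac1Gr1, PreGM and Ter119, and each of these differed from the next (PreGM against Ter119, adjusted p = 0.0194). KLS, PreMegE and CFUe came last, and neighbors among them did not differ beyond their spread (adjusted p = 0.339 and 0.939).

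The isozymes thus parted along the lineages, which the ratio of their signals within an array shows without any scaling between arrays. Against the KLS mean, log2 of Alas2 over Alas1 changed by 0.62 in PreMegE and -0.10 in CFUe, and Ter119 stood 11.52 above that mean. In the myeloid fractions the change was -4.16 for PreGM, -6.97 for GMP and -1.38 for Mac1Gr1. At every stage all erythroid arrays lay above all myeloid arrays. The erythroid minus myeloid difference was 4.77 at the first stage, 6.87 at the second and 12.9 at the third, with a mean of 8.18. The exact permutation test over samples within each stage, two-sided, gave p = 0.00025, the smallest that its 8000 arrangements allow. Between CFUe and GMP, Alas1 differed by -4.34 ± 0.21 and Alas2 by 2.53 ± 0.29, the latter with a probe well above background on 1 of the 3 GMP arrays.

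**Figure D2:**
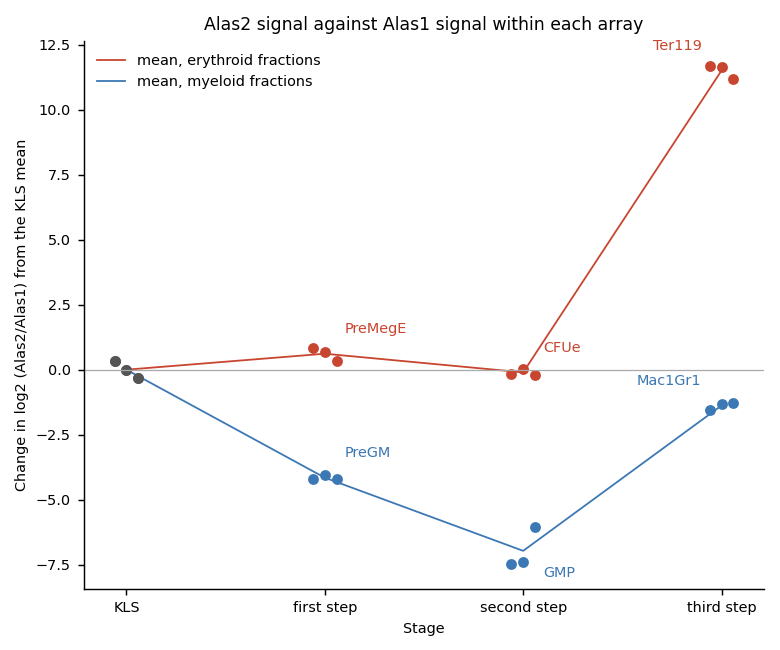
Change in log2 of the Alas2 over the Alas1 signal within an array, from the KLS mean (vertical axis), at KLS and the 3 steps of either lineage (horizontal axis). Points are arrays and lines join the means; the Ter119 mean is at 11.52 and the GMP mean at -6.97.

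Among 14144 genes with a tested probe, those whose levels followed Alas1 most closely over the 21 arrays were Plod3 (r = 0.989), Lta4h (0.975), Pdia5 (0.935), Man2b2 (0.934) and Nrg1 (0.930). All 5 were highest in GMP, as Alas1 was. Lta4h encodes leukotriene A4 hydrolase, and Plod3 and Pdia5 encode enzymes of the endoplasmic reticulum. Those closest to Alas2 were Tbcel (0.992), Fhdc1 (0.991), Hba-a1 (0.986), Slc4a1 (0.984) and Kcnh6 (0.981), all highest in Ter119. Slc4a1 encodes band 3, the anion exchanger of the red cell membrane. The points share fractions, with 3 arrays each, so these coefficients describe likeness of pattern and carry no test.

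Of the enzymes that follow, Alad, Uros, Urod, Cpox and Fech rose earlier than Alas2, and not all at once, whereas Ppox was not called before the last step. Alad and Urod, the first and the last of the cytosolic enzymes, rose already from KLS to PreMegE, and 5 genes rose from PreMegE to CFUe. At the last step, to Ter119, 6 genes rose, Alas2 among them.

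**Figure D3:**
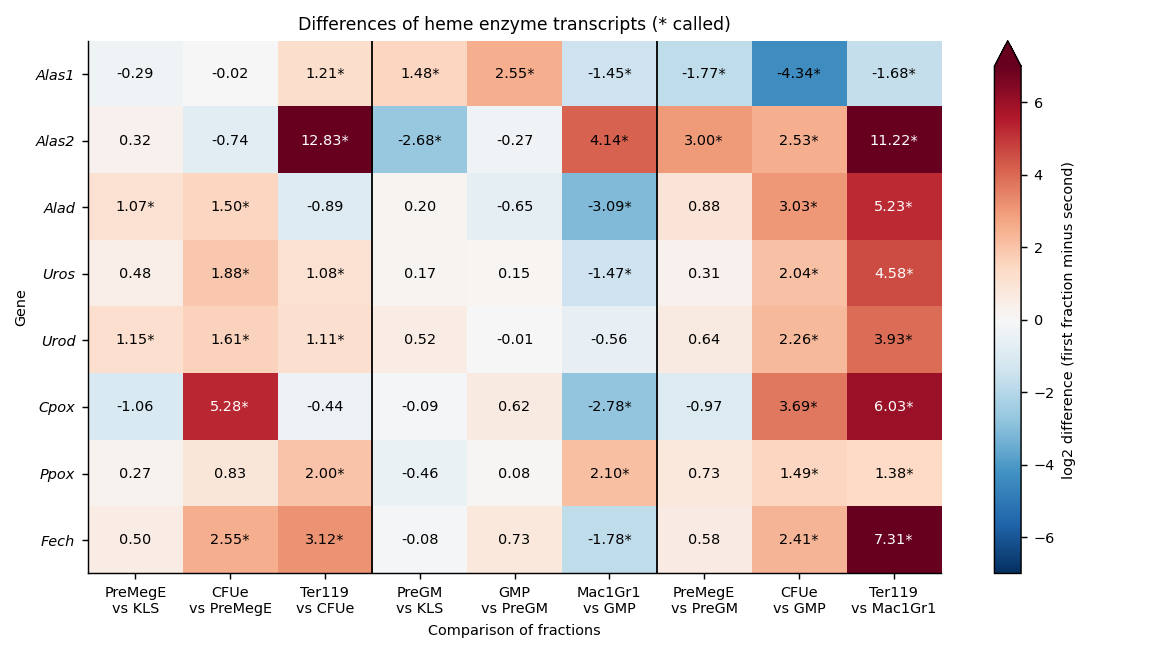
Log2 difference of each of the 8 genes (rows) in the 9 comparisons of fractions (columns: 3 erythroid steps, 3 myeloid steps, 3 lineage comparisons), colored by value with the scale ending at 7. An asterisk marks a call, at an adjusted p under 0.05 and at least 2-fold. The columns CFUe vs GMP and Ter119 vs Mac1Gr1 hold calls for all 8 genes, and Alas1 is the gene lower on the erythroid side in both.

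From KLS to PreMegE, 2 of 8 genes were called higher, against 3.55% of all probes, and none lower, against 8.86%. Urod, uroporphyrinogen decarboxylase, rose by 1.15 ± 0.15 (adjusted p = 2.07e-05). Alad, 5-aminolevulinate dehydratase, rose by 1.07 ± 0.23 (adjusted p = 0.00190). Both lie just above the 2-fold limit, and neither was called under spike-in scaling (0.69 for Urod, 0.61 for Alad) or from the authors' series table (0.98 and 0.97). Alad also lost its call without KLS replicate 1 (0.98) or 2 (0.99), under quantile scaling (0.98) and in a fit that blocked on the slide (0.98, adjusted p = 0.0799).

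From PreMegE to CFUe, 5 of 8 genes were called higher, against 9.96% of all probes, and none lower, against 14.7%. They were Alad, Uros, Urod, Cpox and Fech. The median change of the 8 genes was 1.56 and that of all probes 0.12. From CFUe to Ter119, 6 of 8 genes were called higher, against 29.2% of all probes, and none lower, against 28.0%. Besides both Alas genes they were Uros, Urod, Ppox and Fech, and the median change was 1.16 against 0.05 for all probes.

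The mean levels of Alad and Cpox were highest in CFUe, before the end of the erythroid course. The log2 level of Alad was 2.23, 2.24 and 2.79 in KLS, 3.35, 3.64 and 3.50 in PreMegE, 4.87, 5.06 and 5.07 in CFUe, and 3.40, 4.48 and 4.45 in Ter119. The CFUe arrays lay above all others, and 1 Ter119 array lay among the PreMegE arrays. The rise of Alad between PreMegE and CFUe was 1.5 ± 0.23 (adjusted p = 3.41e-05), or 0.99 under spike-in scaling, just short of a call. The change from CFUe to Ter119 was -0.89 ± 0.23 (adjusted p = 0.00207), short of a call, but -1.07 without Ter119 replicate 2, -1.06 without replicate 3, -1.0 with the normexp background and -2.27 under spike-in scaling, all of which were called. In the myeloid fractions it was measured at 2.69, 2.53 and 2.64 in PreGM, 1.94, 2.12 and 1.85 in GMP, and -1.37, -1.08 and -0.92 in Mac1Gr1. The drop from GMP to Mac1Gr1, -3.09 ± 0.23 (8.52-fold, adjusted p = 1.62e-09), was the largest fall among the 8 genes at a single step.

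Uros, uroporphyrinogen III synthase, and Urod, which acts on its product, moved in parallel. Uros lay between -1.98 and -1.47 in KLS, -1.55 and -1.09 in PreMegE, 0.53 and 0.61 in CFUe, and 1.38 and 1.78 in Ter119. The rise was 1.88 ± 0.17 at the step to CFUe (adjusted p = 1.33e-07) and 1.08 ± 0.17 at that to Ter119 (adjusted p = 2.44e-05). Urod lay between 3.37 and 3.88 in KLS, 4.67 and 4.90 in PreMegE, 6.20 and 6.48 in CFUe, and 7.16 and 7.77 in Ter119. It rose by 1.61 ± 0.15 (adjusted p = 2.13e-07) and then by 1.11 ± 0.15 (adjusted p = 4.50e-06). For both genes the first of these rises was the larger estimate, and the second turned to -0.30 for Uros and -0.26 for Urod under spike-in scaling. It also slipped under 2-fold for both with the normexp background (0.96 and 0.90), for Uros with the slide as a block (0.91) and for Urod without Ter119 replicate 2 (0.97). At the myeloid progenitor steps neither gene was called in the main scaling, and both were lowest in Mac1Gr1, where Uros fell by 1.47 ± 0.17 from GMP (adjusted p = 6.50e-07), or by 0.67 with the normexp background. The change of Urod there was -0.56 ± 0.15, under 2-fold, or -2.59 and called under spike-in scaling, and the Mac1Gr1 mean of 3.55 did not differ from the KLS mean of 3.60 beyond the spread (adjusted p = 0.767).

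Cpox, coproporphyrinogen oxidase, returns the pathway to the mitochondrion. Its log2 level was 0.73, 0.73 and 1.02 in KLS, 1.71, -4.07 and 1.67 in PreMegE, 5.01, 5.18 and 4.95 in CFUe, and 4.32, 4.59 and 4.92 in Ter119. PreMegE replicate 2 stood far below the other 2 arrays of its fraction and below every other array, though its spot was well above background. The rise from PreMegE to CFUe was 5.28 ± 0.96 (adjusted p = 1.98e-04), and without that array it was 3.36 (adjusted p = 6.69e-10). On the slide that held an array of both fractions, and not that array, it was 3.47. Without that array the direction from KLS to PreMegE also turned, from -1.06 to 0.86 (limma adjusted p = 0.00115). That from PreGM to PreMegE turned from -0.97 to 0.95 (adjusted p = 5.10e-04). None of these values was called, the turned ones because they were under 2-fold. Between CFUe and Ter119, Cpox changed by -0.44 ± 0.96 (adjusted p = 0.690).

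Among the myeloid fractions, Cpox was lowest in Mac1Gr1. It lay between 0.66 and 0.87 in PreGM, 1.34 and 1.40 in GMP, and -1.63 and -1.21 in Mac1Gr1. The arrays of PreGM and GMP did not overlap, and their difference of 0.62 ± 0.96 (adjusted p = 0.70) had an adjusted p of 0.00895 in a fit of those fractions alone, at under 2-fold. The change from GMP to Mac1Gr1 was -2.78 ± 0.96 (adjusted p = 0.0149). The wide standard error comes from PreMegE replicate 2, since all fractions shared 1 estimate of the spread. The difference between CFUe and GMP was 3.69 ± 0.96 (adjusted p = 0.00386), and a fit that blocked on the slide gave 2.12 and no call (adjusted p = 0.222).

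Ppox, protoporphyrinogen oxidase, rose at the last step of both lineages, as Alas2 did. Its log2 level lay between 1.63 and 2.01 in KLS, 1.91 and 2.25 in PreMegE, 2.79 and 3.03 in CFUe, and 4.61 and 5.13 in Ter119. It rose by 2.0 ± 0.14 from CFUe to Ter119 (4.0-fold, adjusted p = 1.05e-09), or by 0.62 under spike-in scaling, where it was not called. In the myeloid fractions it lay between 1.25 and 1.41 in PreGM, 1.24 and 1.52 in GMP, and 3.41 and 3.61 in Mac1Gr1. The rise from GMP to Mac1Gr1 was 2.10 ± 0.14 (4.30-fold, adjusted p = 5.30e-10), or 0.07 under spike-in scaling. The difference between those last steps was -0.10 ± 0.20 (adjusted p = 0.696). The rise to Ter119 went together with that of the granulocytic markers given above, and their part in it was not tested. From PreMegE to CFUe the change of Ppox, 0.83 ± 0.14, was under 2-fold, but a fit that blocked on the slide gave 1.02 and a call (adjusted p = 3.96e-04).

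Fech, ferrochelatase, inserts iron into protoporphyrin and ends the chain. Its log2 level was 0.40, 0.24 and 0.15 in KLS, 0.86, 0.61 and 0.81 in PreMegE, 3.5, 3.29 and 3.14 in CFUe, and 6.33, 6.39 and 6.56 in Ter119. Arrays of neighboring fractions did not overlap, and in the main scaling the gene rose at every erythroid step. The first rise was not called, and spike-in scaling shifts all probes by -0.46 at that step. The rise was 0.50 ± 0.13 to PreMegE (adjusted p = 0.00990, under 2-fold), 2.55 ± 0.13 to CFUe (adjusted p = 2.09e-10) and 3.12 ± 0.13 to Ter119 (8.68-fold, adjusted p = 1.34e-12). The second probe gave means of -0.85, -0.31, 2.07 and 6.42 in the same fractions. In the myeloid fractions Fech lay between 0.00 and 0.36 in PreGM, 0.82 and 0.97 in GMP, and -1.04 and -0.67 in Mac1Gr1, a fall of 1.78 ± 0.13 at the last step (adjusted p = 1.71e-09).

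At the first and second myeloid steps, only the Alas genes were called in the main scaling. From KLS to PreGM, 1 of 8 was called higher, against 2.11% of all probes, and 1 lower, against 6.52%; these were Alas1 and Alas2. From PreGM to GMP, 1 of 8 was called higher, against 4.01%, and none lower, against 6.36%, the gene being Alas1. Under spike-in scaling, Uros (1.16), Urod (1.01), Ppox (1.09) and Fech (1.74) were called higher there too, and Ppox (-1.08) lower from KLS to PreGM. From GMP to Mac1Gr1, 2 of 8 were called higher, against 29.1%, and 5 lower, against 27.6%. Ppox and Alas2 rose there, and Alas1, Alad, Uros, Cpox and Fech fell. The median change of the 8 genes at this step was -1.46, and that of all probes 0.17.

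Between the lineages, the earliest pair of fractions held calls for the isozymes alone. In PreMegE against PreGM, 1 of 8 genes was called higher, against 5.81% of all probes, and 1 lower, against 6.23%. Alas2 was higher in PreMegE by 3.0 ± 0.29 (adjusted p = 6.42e-07) and Alas1 differed by -1.77 ± 0.21 (adjusted p = 6.44e-06). Alad (0.88), Ppox (0.73), Urod (0.64) and Fech (0.58) were also higher in PreMegE, at limma adjusted p of 9.19e-04 to 0.00826 but under 2-fold. Alad became a call under spike-in scaling (1.03). Since KLS is common to both first steps, the comparison of PreMegE with PreGM is also the test of whether those steps differed. In CFUe against GMP, 7 of 8 genes were called higher, against 12.1%, and 1 lower, against 14.2%. In Ter119 against Mac1Gr1, 7 of 8 were again higher, against 22.0%, and 1 lower, against 19.9%. The lower gene was Alas1 in both. Under spike-in scaling, Uros (0.66), Urod (0.87) and Ppox (0.11) lost their calls in CFUe against GMP, and Ppox (0.66) in Ter119 against Mac1Gr1. In the mature fractions the differences ran from 1.38 ± 0.14 for Ppox to 7.31 ± 0.13 for Fech and 11.22 ± 0.29 for Alas2.

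The changes themselves differed between the lineages for most of the genes. At the second step, PreMegE to CFUe against PreGM to GMP, 5 of 8 genes changed more in the erythroid direction, against 8.38% of all probes, and 1 less, against 11.8%. The 5 were Alad, Uros, Urod, Cpox and Fech, with differences of 1.62 to 4.65, and the other was Alas1, with -2.57 ± 0.30 (adjusted p = 4.42e-06). The difference for Cpox was 4.65 ± 1.36 (adjusted p = 0.0134), and 2.73 without PreMegE replicate 2 (adjusted p = 2.49e-07). A fit of the 4 fractions alone (adjusted p = 0.0625) and one that blocked on the slide (adjusted p = 0.123) did not call it. Under spike-in scaling, the differences for Alad (0.62), Uros (0.19), Urod (0.08) and Fech (0.29) were not called, and that for Alas2, -0.47 in the main scaling, became -2.0 and was. At the third step, 6 of 8 genes changed more from CFUe to Ter119 than from GMP to Mac1Gr1, against 20.9% of all probes, and none less, against 19.0%. Cpox and Ppox were the 2 not called. The difference for Cpox was 2.34 (adjusted p = 0.156) and became a call at the same value in a fit of the 4 fractions alone (adjusted p = 1.74e-05).

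The other genes of heme metabolism were counted by list. Of 11 genes for transport of substrates, porphyrins and heme, 2 were called higher from KLS to PreMegE (Abcb6 and Abcb10), against 3.55% of all probes. None was called lower, against 8.86%, and Abcb6 was under 2-fold with spike-in scaling (0.67). From PreMegE to CFUe, 7 were called higher, against 9.96% of all probes, and none lower, with a median of 1.02, and 4 of the 7 stayed at or above 2-fold with spike-in scaling. The largest rises were those of Hebp1, a heme-binding protein, by 4.0, of Tmem14c, which serves porphyrinogen import, by 2.10, and of Abcb6 by 2.08. From CFUe to Ter119, 4 rose and 3 fell, against 29.2% and 28.0% of all probes. Slc25a39 rose by 3.40, Fam210b by 3.39, Abcb10 by 2.06 and Slc48a1 by 1.40, whereas Tmem14c fell by 2.01, Flvcr1, a heme exporter, by 1.65 and Pgrmc1 by 2.79. With spike-in scaling the rises of Abcb10 (0.68) and Slc48a1 (0.03) were under 2-fold. Slc25a38, the mitochondrial carrier that brings in glycine, rose by 1.36 to CFUe, or by 0.84 with spike-in scaling. In the myeloid fractions 1 fell from KLS to PreGM (Hebp1), against 6.52% of all probes, and none rose, against 2.11%. From PreGM to GMP 1 rose (Abcb10), against 4.01%, and none fell, against 6.36%. From GMP to Mac1Gr1, 2 rose and 6 fell, against 29.1% and 27.6%. The rises there, of Slc25a38 (1.2) and Flvcr1 (1.36), turned to -0.83 and -0.67 under spike-in scaling, and the largest falls were those of Abcb10 (-3.47), Slc48a1 (-1.82) and Slc25a39 (-1.68).

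Of 11 genes for mitochondrial iron and iron-sulfur clusters, the supply on which the cluster of ferrochelatase depends, 1 rose from KLS to PreMegE (Iba57, by 1.01, or 0.55 with spike-in scaling). Of all probes, 3.55% were called higher at that step and 8.86% lower, and no gene of the list fell. From PreMegE to CFUe, 4 rose, against 9.96% of all probes, and none fell, with a median of 0.82: Lyrm4 by 1.87, Glrx5 by 1.83, Nfs1 by 1.2 and Isca2 by 1.08. The last 2 were under 2-fold with spike-in scaling (0.68 and 0.57). From CFUe to Ter119, 3 rose and 4 fell, against 29.2% and 28.0% of all probes. Slc25a37, mitoferrin 1, the iron importer of erythroid mitochondria, rose by 7.03 (adjusted p = 6.71e-16), after means of 2.54 in PreMegE and 2.10 in CFUe. Its course over these erythroid fractions was like that of Alas2. Against GMP, however, Slc25a37 was lower in CFUe (-1.07), where Alas2 was higher (2.53). Isca1 rose by 3.01 and Iscu by 2.32, the latter by 0.94 with spike-in scaling. The falls were those of Lyrm4, Nfs1, Fdxr and Fdx1, from -3.19 to -1.04. No gene of the list was called from KLS to PreGM, against 2.11% of all probes higher and 6.52% lower. None was called from PreGM to GMP either, against 4.01% and 6.36%. From GMP to Mac1Gr1, 2 rose and 6 fell, against 29.1% and 27.6%. The rises of Slc25a37 (1.69) and Iscu (1.3) there turned to -0.34 and -0.74 under spike-in scaling, and the largest falls were those of Glrx5 (-2.76), Lyrm4 (-2.34) and Iba57 (-2.06).

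**Figure D4:**
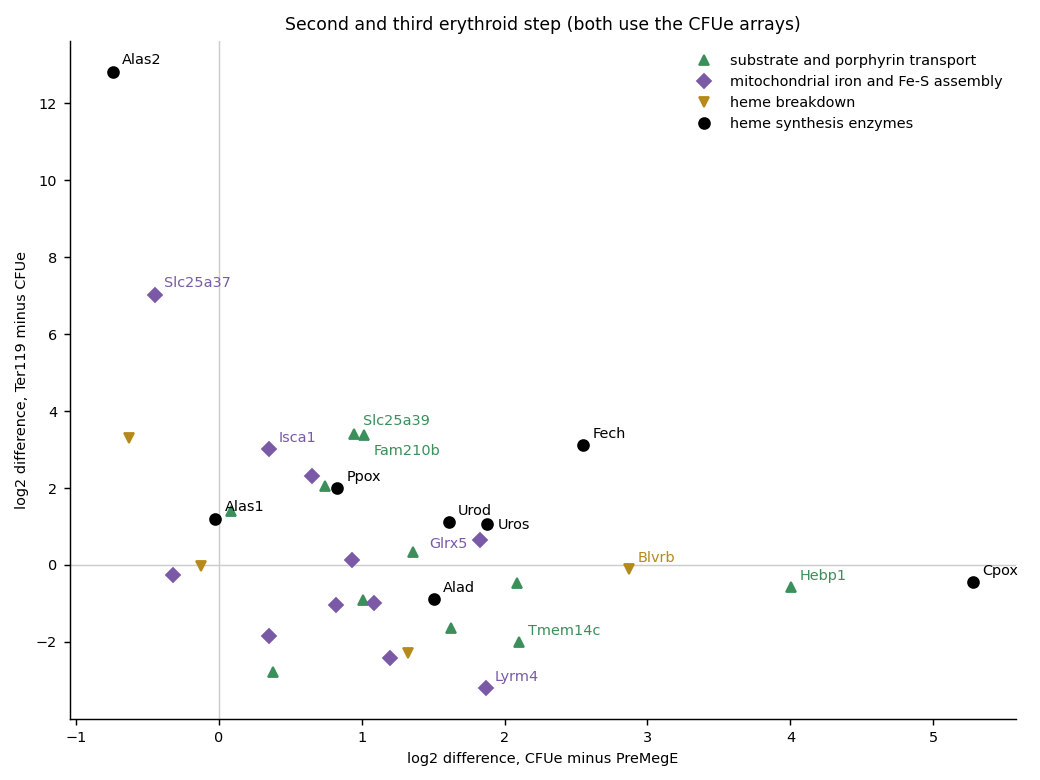
Log2 difference from PreMegE to CFUe (horizontal axis) and from CFUe to Ter119 (vertical axis) for the 8 enzyme genes and the lists for transport, mitochondrial iron and heme breakdown; both axes use the CFUe arrays and are therefore not independent. Alas2 and Slc25a37 lie at the upper left, with rises of 12.83 and 7.03 at the last step alone. Cpox and Hebp1 lie at the right, with rises of 5.28 and 4.0 to CFUe. Without PreMegE replicate 2, the rise of Cpox was 3.36.

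Of the 4 genes of heme breakdown, Hmox1, heme oxygenase 1, was highest in KLS at 3.75 and changed by -4.66 to PreMegE and by -4.53 to PreGM. The KLS arrays also carried macrophage transcripts, with all 7 macrophage markers called lower in PreMegE and in PreGM and a summed level of 4.26 to 5.76 in KLS against -1.54 to -0.41 in PreMegE. Of all probes, 8.86% were called lower from KLS to PreMegE and 6.52% from KLS to PreGM. Hmox1 was also called higher from CFUe to Ter119, by 3.31, and from GMP to Mac1Gr1, by 3.35. The part of macrophages in the Hmox1 values was not tested. Blvrb, biliverdin reductase B, rose by 1.98 to PreMegE and by 2.87 to CFUe, and Blvra by 1.33 to CFUe (0.81 with spike-in scaling) before it fell by 2.30 to Ter119. For heme A, Cox10 and Cox15, which convert heme for cytochrome oxidase, rose by 1.16 and 1.06 to CFUe, or by 0.64 and 0.54 with spike-in scaling. All 3 genes of that list fell from CFUe to Ter119, against 28.0% of all probes, Cox10 by 3.17, Cox15 by 2.34 and Hccs by 1.47. At that step these genes thus fell while Fech rose.

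Of 10 genes that control heme synthesis or sense heme, Gata1 and Klf1, erythroid transcription factors, were called higher in PreMegE than in KLS, by 4.45 and 4.62, and no gene was lower. Of all probes, 3.55% were called higher and 8.86% lower at that step. Gata1 went from -1.97 in KLS to 2.48 in PreMegE, 3.13 in CFUe and 0.80 in Ter119, so it was lower in the fraction where Alas2 was highest than in the 2 before it. From CFUe to Ter119, 3 genes of the list rose and 4 fell, against 29.2% and 28.0% of all probes. Eif2ak1, the heme-regulated kinase that slows globin translation when heme is short, rose by 1.15 to CFUe and by 1.98 to Ter119, where Nr1d1 rose by 1.56 and Ppargc1a by 1.44. With spike-in scaling these were 0.63 and 0.61 for Eif2ak1, 0.19 for Nr1d1 and 0.06 for Ppargc1a, all under 2-fold. Aco1 fell by 2.83, Gata1 by 2.33, Clpx, a protease subunit that acts on Alas proteins, by 1.66, and Klf1 by 1.51. On the myeloid side, Gata1 was called higher by 1.22 from KLS to PreGM (0.61 with spike-in scaling) and changed by -2.15 from PreGM to GMP, where Klf1 changed by -2.36. From GMP to Mac1Gr1, Bach1, a repressor that heme inactivates, rose by 1.64 and Nr1d1 by 1.02, which turned to -0.39 and -1.01 under spike-in scaling, and Aco1 fell by 1.75.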

How the data were processed

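Per the labels, total RNA with spike-in RNAs was amplified, labelled with Cy3 and hybridized to 1-color Agilent arrays. The deposited scanner files hold a background-corrected intensity per spot, made by the authors with Agilent Feature Extraction 10.7.1.1 (build mm9 in the header). A series table, also deposited, gives log2 values that were normalized by the authors, whose methods name limma and SAM but not how the values were scaled; column medians were 6.15 to 6.23, and it served as an alternative. Centering of that table is unknown.

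Spots flagged as outliers were dropped, log2 intensity was centered on the 75th percentile of each array, and spots of a probe were averaged. A probe was tested where some fraction had it well above background on each of its 3 arrays. limma 3.58.1 (R 4.3.3) was fitted to all 21 arrays with a mean per fraction, with Benjamini-Hochberg adjustment over 29527 probes, and tested on simulated data. A call needed an adjusted p under 0.05 and 2-fold. The number of arrays limits the precision. The ratio of Alas2 to Alas1 was tested by exact permutation within stages. Symbols came from RefSeq accessions (GRCm38.p6, names and promoter windows only); 64.8% of probes had one, and Hbb-b1, Cd68, Igll1, Kit and Ly6g of the lists were not analysed here. Results of some other genes are not reported here. Replicate numbers did not pair the samples (correlations of deviations -0.37 to 0.37).

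The 8 genes, the lists and the tests were chosen with earlier results of these data known. List genes are named where a list had at most 5 calls in a direction, otherwise the 3 largest. Alternatives were quantile, spike-in and normexp processing (the last on median pixel signals), the series table, no filter, slide or replicate blocks, fewer fractions, no minimum fold, all probes of a gene, and leaving out each array.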

Additional observations from a re-analysis of the deposited data

Results flagged for a closer look

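The changes of 6 of the 8 genes differed between the lineages at the second step, by the test of the difference itself (PreMegE to CFUe minus PreGM to GMP, log2 scale). The differences were -2.57 for Alas1, 4.65 for Cpox, 1.73 for Uros, 1.83 for Fech, 1.62 for Urod and 2.16 for Alad. Of all probes, 8.38% were called higher and 11.8% lower in this difference. As given above, Alad, Uros, Urod and Fech were not called under spike-in scaling, and Cpox was 2.73 without PreMegE replicate 2.

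At the third step (CFUe to Ter119 minus GMP to Mac1Gr1), 6 genes differed as well, by 2.66 for Alas1, 2.54 for Uros, 4.90 for Fech, 1.67 for Urod, 8.69 for Alas2 and 2.20 for Alad. Of all probes, 20.9% were called higher and 19.0% lower there. Alas1 had opposite signs at the 2 steps: its change was the smaller one on the erythroid side at the second step and the larger one at the third. Single outlying arrays were not tested in groups of 3 arrays, and the Cpox value of PreMegE replicate 2 is given as a description.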

How the results depend on the processing

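Over 88 changes of single genes and 10 alternatives other than leaving out an array, 813 of 880 values were counted as the same. These kept their side of the threshold and their direction, or turned without a call by no more than the SD within fractions. Of the others, 25 lost a call, 27 gained one, 4 turned with a call on either side, and 11 turned without a call by more than that SD. Leaving out single arrays kept 619 of 624 by the same rule, which counts the turn of Cpox from KLS to PreMegE as the same. Spike-in scaling, which shifts all probes alike, gave all 4 turned values: from CFUe to Ter119, -0.17 for Alas1, -0.30 for Uros and -0.26 for Urod, and from PreGM to GMP 1.01 for Urod.

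Counts of genes called, both directions together, moved as follows. From KLS to PreMegE (2), the count was 1 with quantile scaling and with the slide as a block, 0 with spike-in scaling and with the series table, and 4 with no minimum fold; leaving out 1 array gave 1 to 2. Spike-in scaling gave 3 in place of 6 from CFUe to Ter119, 5 in place of 1 from PreGM to GMP, 5 in place of 8 for CFUe against GMP, and 3 in place of 6 for the second-step difference. No minimum fold gave 4 in place of 2 from KLS to PreGM, 3 in place of 1 from PreGM to GMP, and 6 in place of 2 for PreMegE against PreGM. Over all probes, the share of calls that were higher was 51.1% from CFUe to Ter119 and 51.3% from GMP to Mac1Gr1, and 19.7% and 8.40% with spike-in scaling.

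With the replicate block, no call of a single gene changed, and the mean difference of the isozyme ratio stayed 8.18 (exact permutation p = 0.00391, the smallest of that design). That ratio was 7.09 with the normexp background, 7.77 from the series table, 8.18 with the mean of a gene's probes and 8.10 to 8.33 without single arrays. Slides shared by the compared fractions gave the same sign for 16 of 16 called values. The arrays behind these calls did not overlap between fractions, so that sign was fixed in advance and is no check on the slides. Signal near background limits the values of Alas2 in PreGM and GMP. The causes of these shifts were not tested.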
